A study of Mus musculus with 96 samples.

Results

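The comparison set epidermis of mice killed at ZT20 against epidermis of mice killed at ZT8, within each of 4 genotypes, and then set the 4 contrasts against each other gene by gene. ZT is zeitgeber time, in hours from lights on, so that under 12 h of light and 12 h of dark ZT8 falls in the light phase, when mice rest, and ZT20 in the dark phase, when they are active. The contrast used 32 of the 96 poly(A) RNA-seq libraries of the series, namely the 8 libraries of each genotype from those times, 4 mice at ZT20 and 4 at ZT8. All were C57BL/6 males aged 8 weeks. RERE mice carried Arntl stopFL/stopFL with K14Cre tg/wt and Syt10-Cre tg/wt, EpiRE mice the same Arntl alleles with K14Cre tg/wt and Syt10-Cre wt/wt, and BRE mice the same Arntl alleles with K14Cre wt/wt and Syt10-Cre tg/wt. WT mice were Arntl wt/wt and also carried both drivers (K14Cre wt/tg, Syt10-Cre tg/wt). A stopFL allele is silent until Cre removes a stop cassette, so the labels describe RERE as reconstituted in brain and epidermis, EpiRE in epidermis and BRE in brain.

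Arntl encodes BMAL1, which pairs with CLOCK or NPAS2 and switches on genes with E-boxes, among them the Per and Cry repressors of the pair itself, the nuclear receptors REV-ERB alpha and beta (Nr1d1, Nr1d2) that repress Arntl, and the D-box activator Dbp. The clock of the suprachiasmatic nucleus, where Syt10-Cre acts, sets the phase of peripheral clocks through feeding, temperature and hormones, and epidermal keratinocytes have a clock of their own. In mouse epidermis the day also orders DNA replication and mitosis. K14-Cre acts in keratinocytes, so T cells, Langerhans cells and melanocytes of RERE and EpiRE epidermis keep the stop cassette. Organs of the 3 reconstituted genotypes where neither driver acts keep it too. Mice with the stop cassette in place throughout are not analysed here.

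Values are log2 RPKM, reads scaled to transcript length and library depth, and levels below are given as RPKM per mouse. A difference is the ZT20 mean minus the ZT8 mean on the log2 scale, with its standard error, from limma fitted to all 24 libraries of a genotype. A gene counted as called when its p, adjusted by Benjamini-Hochberg over 11516 tested genes, was under 0.05. Estimated depth of the 32 libraries was 11.6 to 19.9 M reads (median 15.1 M). The keratins Krt5 and Krt14 of the basal layer and Krt1 and Krt10 of the suprabasal layers had medians of 6070, 2790, 2470 and 7360 RPKM over the libraries, whereas Lor, a gene of the cornified layer, had 13.2 RPKM. Endothelial and adipocyte markers summed to at most 0.509 and 1.62 RPKM. Fibroblast markers reached 30.7 RPKM (WT at ZT20) and red blood cell markers 172 RPKM (RERE at ZT20), with overlap between the times in every genotype. Skeletal muscle markers summed to 33.3 to 47.6 RPKM and were higher at ZT20 without overlap in every genotype. Acta1 alone had a median of 36.3 RPKM. T cell markers (Cd3e, Thy1 and others, 7 genes) summed to 62.6 to 86.8 RPKM at ZT20 against 36.2 to 41.3 RPKM at ZT8 in WT, and their ranges at the 2 times overlapped in EpiRE alone. The largest deviations from a group's mean were those of WT ZT8 mouse 1 (root mean square 0.332 on the log2 scale) and RERE ZT8 mouse 2 (0.315). In bulk epidermis, fewer cells of a type and less RNA per cell cannot be told apart.

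In WT epidermis 1832 genes were called, 15.9% of those tested, of which 1438 were higher at ZT20 (12.5%) and 394 lower (3.42%). In RERE epidermis the count was 156 (1.35%), with 97 higher (0.842%) and 59 lower (0.512%) at ZT20. EpiRE gave 83 calls (0.721%), 32 higher (0.278%) and 51 lower (0.443%), and BRE gave 100 (0.868%), 47 higher (0.408%) and 53 lower (0.46%). Changes of at least 1.5-fold made up 105 of the calls in RERE, 27 in EpiRE, 27 in BRE and 507 in WT. An unadjusted p under 0.05 (limma) was reached by 1502 of the 11516 tested genes in RERE, 1526 in EpiRE, 2297 in BRE and 3515 in WT. Residual spread was alike in the 4 genotypes, with a median SD of 0.155 in RERE, 0.146 in EpiRE, 0.159 in BRE and 0.151 in WT on the log2 scale. The median difference of all tested genes was 0.03 in RERE, 0 in EpiRE, 0.02 in BRE and 0.08 in WT. After a median-of-ratios rescaling the split was 902 higher and 787 lower in WT, 85 and 94 in RERE and 64 and 109 in BRE, so the size of the excess of higher calls in WT, and its presence in RERE, depended on the scaling. In the fits that left out 1 library at a time, 934 WT genes, 64 RERE genes, 11 EpiRE genes and 5 BRE genes were called every time. The RERE count was 81 without ZT20 mouse 2, 92 without ZT8 mouse 4 and 101 without ZT20 mouse 4. The EpiRE count was 14 without ZT8 mouse 3, 18 without ZT20 mouse 1, 33 without ZT20 mouse 4, 37 without ZT20 mouse 2 and 38 without ZT8 mouse 2. The BRE count was 6 without ZT8 mouse 2, 7 without ZT20 mouse 1, 13 without ZT8 mouse 4, 18 without ZT20 mouse 3, 19 without ZT20 mouse 4, 42 without ZT20 mouse 2 and 255 without ZT8 mouse 1.

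The activators of the clock were higher at ZT20 in RERE and WT. Arntl itself (chromosome 7, 113207465 to 113314126, plus strand, mm10) had 22.6, 25.3, 18.4 and 23.0 RPKM in RERE mice at ZT20, against 8.12, 5.80, 7.84 and 6.61 at ZT8. In WT it had 18.2, 25.0, 20.4 and 24.9 RPKM at ZT20, against 5.23, 6.34, 6.90 and 6.76 at ZT8. In both genotypes every mouse at ZT20 stood above every mouse at ZT8, with a difference of 1.66 ± 0.13 in RERE (limma, adjusted p = 2.79e-08) and 1.81 ± 0.12 in WT (adjusted p = 2.58e-09). EpiRE had 19.3, 19.8, 20.7 and 24 RPKM at ZT20, against 11.1, 14.7, 13.6 and 9.56 at ZT8. The groups did not overlap there either, and the difference was smaller, 0.79 ± 0.17 (limma, adjusted p = 0.0345), with a call in 1 of the 8 fits that left out a library. In BRE, 12.4 to 13.5 RPKM at ZT20 overlapped with 11.4 to 12.6 RPKM at ZT8 (0.12 ± 0.06, adjusted p = 0.31). Reads over Arntl do not check the genotype, since transcripts that end at or pass the cassette may be counted too.

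Npas2, the partner of BMAL1 that can stand in for CLOCK, was the single gene called in all 4 genotypes. It had 10.1, 9.81, 8.41 and 10.1 RPKM at ZT20 in RERE, against 2.14, 1.87, 1.65 and 1.75 at ZT8, a difference of 2.38 ± 0.22 (limma, adjusted p = 4.14e-07). In WT the ZT20 values of 6.26, 9.38, 7.89 and 9.64 RPKM compared with 2.13, 1.87, 1.78 and 1.63 at ZT8 (2.15 ± 0.19, adjusted p = 1.71e-07). EpiRE mice had 6.85, 6.43, 9.10 and 7.41 RPKM at ZT20 and 2.23, 2.81, 3.29 and 3.36 at ZT8 (1.36 ± 0.31, adjusted p = 0.0458). BRE stood apart by level, with 19.0, 17.8, 18.6 and 18.1 RPKM at ZT20 and 13.2, 13.4, 14.5 and 15.0 at ZT8, and by the size of the difference, 0.39 ± 0.09 (adjusted p = 0.0418). The EpiRE and BRE calls were made in 0 of the 8 fits that left out a library. Clock rose at ZT20 in WT by 0.38 ± 0.05 (limma, adjusted p = 6.11e-05) and had differences of 0.28 ± 0.08 in RERE, 0.00 ± 0.09 in EpiRE and 0.01 ± 0.09 in BRE, none of these 3 called.

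**Figure D1:**
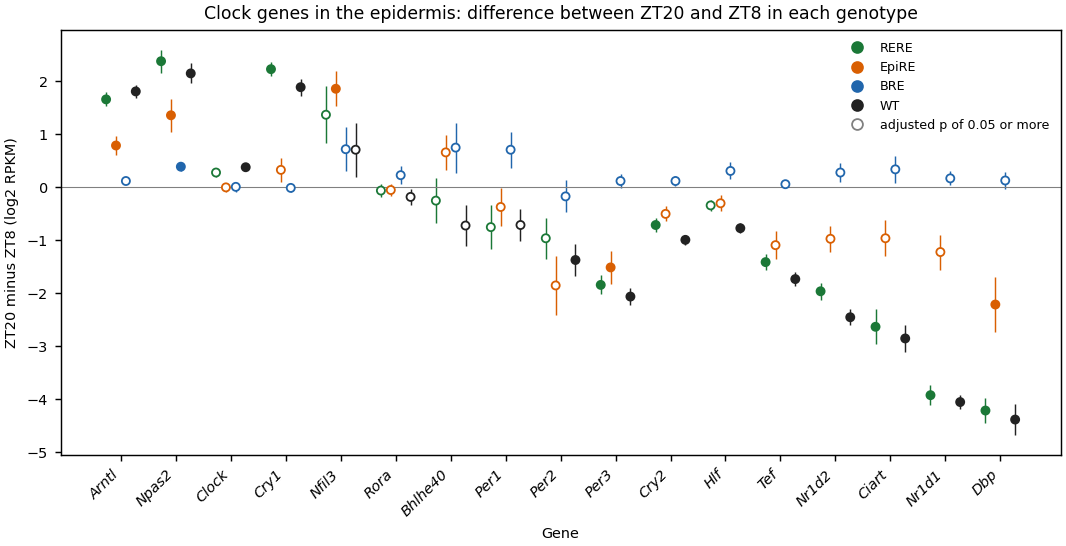
ZT20 minus ZT8 difference (log2, with standard error) of the tested clock genes in RERE, EpiRE, BRE and WT. RERE and WT points lie close to each other far from 0 for Nr1d1 (-3.92 and -4.05) and Dbp (-4.21 and -4.38), EpiRE points lie between, and BRE points lie near 0.

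Of all tested genes, 1.35% were called in RERE, 0.721% in EpiRE, 0.868% in BRE and 15.9% in WT. Among the repressors and the stabilising loop (10 tested genes), RERE had 6 calls, EpiRE 1, BRE 0 and WT 7. Nr1d1 (REV-ERB alpha, chromosome 11, 98767932 to 98775333, minus strand) fell furthest in this group. It had 10.6, 9.71, 9.30 and 8.47 RPKM at ZT20 in RERE, against 122, 152, 149 and 156 at ZT8 (-3.92 ± 0.19, limma adjusted p = 1.01e-11), and 9.27, 8.36, 8.55 and 8.17 RPKM at ZT20 in WT, against 170, 130, 131 and 142 at ZT8 (-4.05 ± 0.13, adjusted p = 9.76e-16). The folds were 15.18 in RERE and 16.6 in WT, with no overlap in either. EpiRE mice ranged widely at both times, with 57.8, 25.4, 26.9 and 19.3 RPKM at ZT20 and 63.2, 43.7, 73.2 and 112 at ZT8, and the groups overlapped (-1.22 ± 0.33, adjusted p = 0.0868). In BRE Nr1d1 stayed between 3.78 and 5.07 RPKM at both times (0.17 ± 0.13, adjusted p = 0.497). Nr1d2 (REV-ERB beta) fell by 1.96 in RERE and by 2.45 in WT, with differences of -0.97 ± 0.24 in EpiRE (limma, adjusted p = 0.0614) and 0.28 ± 0.18 in BRE.

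Cry1, the late repressor of the loop, went the other way. RERE mice had 25.0, 25.1, 21.8 and 23.4 RPKM at ZT20, against 6.73, 3.64, 4.70 and 5.78 at ZT8, and WT mice 17.7, 24.9, 22.6 and 19.6 RPKM at ZT20, against 5.36, 4.62, 6.28 and 6.70 at ZT8. The groups did not overlap in either genotype, and the differences were 2.23 ± 0.13 (limma, adjusted p = 2.67e-10) in RERE and 1.89 ± 0.16 (adjusted p = 7.89e-08) in WT. EpiRE mice had 11, 15.7, 14.1 and 19.5 RPKM at ZT20 and 14.0, 20.2, 8.88 and 7.62 at ZT8, with full overlap (0.33 ± 0.22, adjusted p = 0.576). BRE mice had high Cry1 at both times, 30.3 to 39.3 RPKM at ZT20 and 31.9 to 39.3 RPKM at ZT8 (-0.01 ± 0.07).

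Per3 fell in 3 genotypes. It had 4.25, 6.76, 4.89 and 3.89 RPKM at ZT20 in RERE, against 13.9, 17.6, 19.1 and 19.1 at ZT8. EpiRE gave 6.20, 6.27, 6.35 and 4.60 RPKM at ZT20, against 16.9, 16.6, 14.7 and 18.2 at ZT8, with no overlap in either genotype. The differences were -1.84 ± 0.18 in RERE, -1.51 ± 0.31 in EpiRE (limma, adjusted p = 0.0217, called in 3 of the 8 fits that left out a library) and -2.06 ± 0.16 in WT, while BRE had 1.78 to 2.89 RPKM at ZT20 and 2.05 to 2.48 RPKM at ZT8. Cry2 and the repressor Ciart fell in RERE (-0.71 ± 0.14 and -2.63 ± 0.33) and in WT (-0.99 ± 0.10 and -2.85 ± 0.25). Per2 fell in WT by 1.37 ± 0.30 (limma, adjusted p = 0.00363) and had -0.96 ± 0.39 in RERE and -1.85 ± 0.56 in EpiRE without a call. Per1, Rora and Bhlhe40 were called in none of the 4 genotypes, where Bhlhe40 (DEC1) had a standard error of at least 0.33. Bhlhe41 was too weakly expressed to be tested.

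Of the PAR bZIP factors, which act through D-boxes, Dbp had the largest change among all clock genes in RERE, EpiRE and WT. Dbp (chromosome 7, 45705088 to 45710203, plus strand) had 5.22, 5.57, 5.96 and 3.81 RPKM at ZT20 in RERE, against 67.7, 100, 110 and 105 at ZT8, and 9.64, 2.62, 5.14 and 5.21 RPKM at ZT20 in WT, against 133, 107, 93.6 and 95.5 at ZT8. These are falls of 18.57-fold in RERE (-4.21 ± 0.24, limma adjusted p = 1.83e-10) and 20.86-fold in WT (-4.38 ± 0.30, adjusted p = 2.58e-09). EpiRE mice had 17.9, 10.4, 8.76 and 4.67 RPKM at ZT20, against 37.1, 38.5, 37.3 and 65.4 at ZT8, a fall of 4.62-fold (-2.21 ± 0.52, adjusted p = 0.0458) that was called in none of the 8 fits that left out a library. BRE mice had 4.44 to 5.69 RPKM at ZT20 and 4.09 to 4.97 RPKM at ZT8, so that their Dbp stood at both times near the ZT20 level of RERE and WT. Tef fell in RERE (-1.41 ± 0.15) and WT (-1.73 ± 0.14), and Hlf in WT (-0.77 ± 0.10).

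Nfil3, the D-box repressor, behaved differently from the PAR bZIP factors. In EpiRE it had 21.3, 13.5, 10.7 and 22.2 RPKM at ZT20, against 6.76, 2.91, 4.06 and 4.89 at ZT8, with no overlap. The difference of 1.86 ± 0.33 (limma, adjusted p = 0.0113) was called in all 8 fits that left out a library. RERE mice had 18.5, 12.9, 9.46 and 23.4 RPKM at ZT20, against 5.22, 4.77, 6.5 and 7.32 at ZT8, which did not overlap but was not called (1.37 ± 0.54, adjusted p = 0.255). The values in BRE (17.6 to 38.6 RPKM at ZT20 and 10.9 to 19.7 RPKM at ZT8) and in WT (5.76 to 31.3 RPKM at ZT20 and 4.52 to 13.2 RPKM at ZT8) overlapped between the times. None of the 6 tests between genotypes called a difference for Nfil3.

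**Figure D2:**
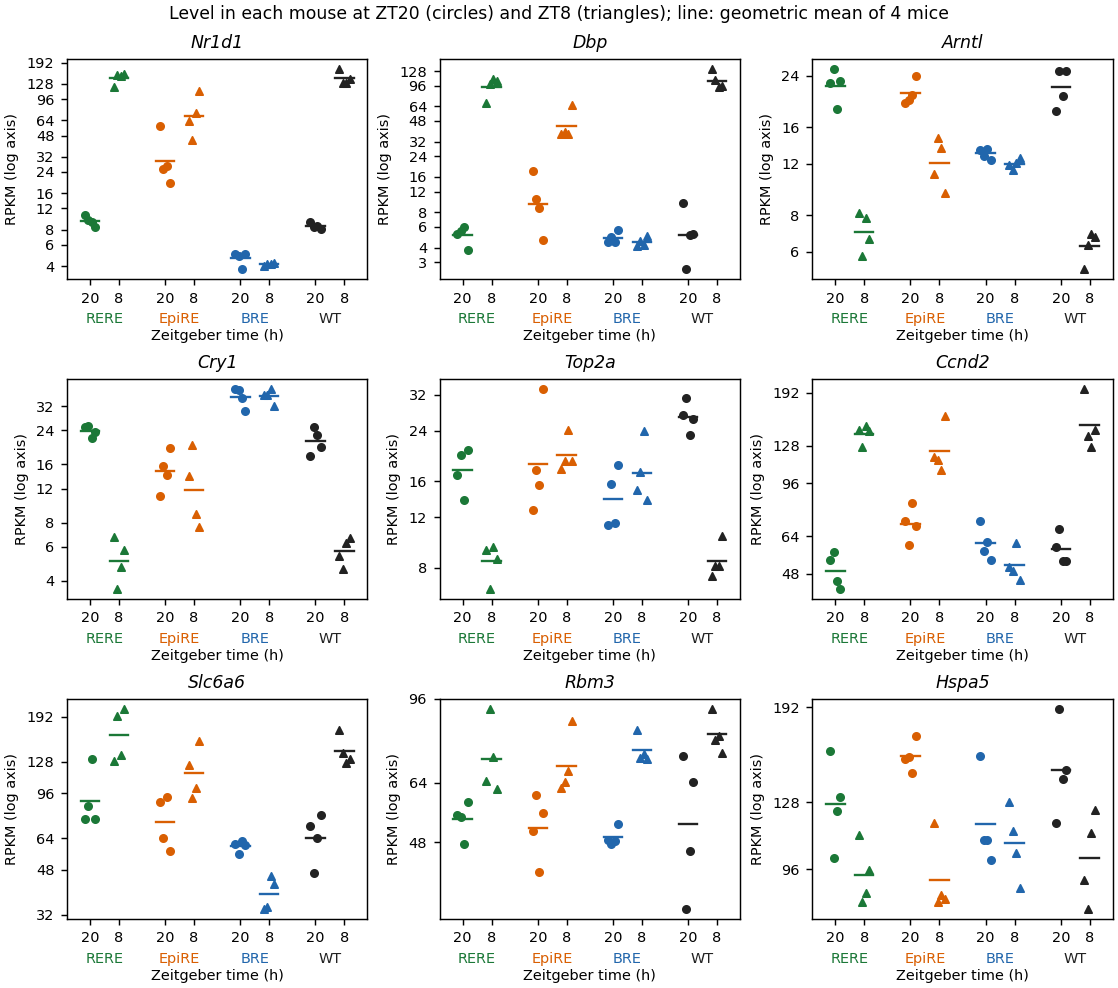
RPKM per mouse (log axis) at ZT20 (circles) and ZT8 (triangles) in RERE, EpiRE, BRE and WT for 9 genes, with lines at the geometric means. For Nr1d1 the RERE mice sit at 8.47 to 10.6 RPKM at ZT20 and at 122 to 156 RPKM at ZT8, the EpiRE groups overlap, and the BRE mice lie between 3.78 and 5.07 RPKM at both times.

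The promoters of 3 of these rhythmic genes are shown because each holds a clock element in the window from 250 bases before to 50 bases after the RefSeq start (assembly GRCm38.p6, the basis of mm10). The motifs searched, on both strands, were the E-box CACGTG, the D-box TTANGTAA, the REV-ERB/ROR element (A, any 2 bases, T, any base, then GGTCA), the CHR element TTTGAA and the CCAAT box CCAAT, and no match in capitals here overlapped a match of another motif. Capitals mark the REV-ERB/ROR element in Arntl (chr7:113207261-113207560, plus strand) and in Leo1 (chr9:75441274-75441573, plus strand), and 3 E-boxes in Ciart (chr3:95882179-95882478, minus strand).
Arntl: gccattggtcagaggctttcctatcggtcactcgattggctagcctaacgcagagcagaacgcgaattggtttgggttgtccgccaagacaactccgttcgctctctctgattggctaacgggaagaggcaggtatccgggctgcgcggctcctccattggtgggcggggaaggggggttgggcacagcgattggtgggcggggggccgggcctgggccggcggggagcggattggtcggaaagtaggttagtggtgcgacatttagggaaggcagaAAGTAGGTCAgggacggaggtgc
Leo1: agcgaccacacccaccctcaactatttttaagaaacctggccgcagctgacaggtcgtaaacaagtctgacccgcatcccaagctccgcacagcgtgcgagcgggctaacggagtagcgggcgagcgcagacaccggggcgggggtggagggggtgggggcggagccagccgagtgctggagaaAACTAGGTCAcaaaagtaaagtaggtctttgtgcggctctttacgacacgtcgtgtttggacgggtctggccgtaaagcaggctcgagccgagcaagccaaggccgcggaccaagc
Ciart: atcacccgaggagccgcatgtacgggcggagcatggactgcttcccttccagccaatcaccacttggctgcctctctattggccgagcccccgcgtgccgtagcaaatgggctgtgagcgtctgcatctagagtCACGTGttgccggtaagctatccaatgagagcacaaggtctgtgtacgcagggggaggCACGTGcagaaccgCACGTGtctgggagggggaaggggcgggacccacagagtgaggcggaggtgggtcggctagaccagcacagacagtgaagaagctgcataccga
The element of Arntl, AAGTAGGTCA, lay 27 bases after the start, and that of Leo1, AACTAGGTCA, 66 bases before it. The E-boxes of Ciart lay 116, 58 and 44 bases before its start. Of all 32851 promoters in the table, 2.46% held a REV-ERB/ROR element, 7.15% an E-box and 2.32% a D-box. Of the clock genes above, 15 had a promoter in the table, 4 of them with an E-box, 1 with a REV-ERB/ROR element and 1 with a D-box. Among the 9015 tested genes with a promoter, 12.2% held an E-box, beside 14.2% of the 1126 higher at ZT20 in WT and 14.9% of the 308 lower. A match is a description of these letters and not a measured binding site.

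Leo1 (a subunit of the PAF1 elongation complex) followed Arntl in sign. It had 9.70, 11.7, 11.1 and 10.6 RPKM at ZT20 in RERE, against 5.59, 5.26, 5.92 and 7.40 at ZT8 (0.84 ± 0.10, limma adjusted p = 5.04e-05), and 11.8, 12.8, 12.7 and 11.8 RPKM at ZT20 in WT, against 6.24, 5.99, 5.39 and 7.10 at ZT8 (0.99 ± 0.09, adjusted p = 3.05e-07). BRE mice had 11.5 to 13.3 RPKM at ZT20 and 11.2 to 12.1 RPKM at ZT8, near the ZT20 level of RERE and WT at both times. EpiRE mice had 10.5, 12.2, 9.81 and 12.4 RPKM at ZT20 and 7.89, 9.01, 9.80 and 7.93 at ZT8, just apart and not called (0.37 ± 0.11, adjusted p = 0.11). Leo1 belonged to a list of 14 clock outputs known from many tissues, of which RERE had 2 calls (Leo1 and Lonrf3), WT 4 (with Tspan4 and Pdxk), and EpiRE and BRE 0. Of all tested genes, 1.35% were called in RERE, 15.9% in WT, 0.721% in EpiRE and 0.868% in BRE. Beside these shares, 0 of 14 in EpiRE and BRE does not set the list apart.

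The difference of the 2 contrasts was tested for each pair of genotypes. The 3 tests against WT use the same WT libraries and are therefore not independent of each other. RERE minus WT gave 0 called genes, 0.0% of those tested, with 1056 genes at an unadjusted p under 0.05. The lowest adjusted p was that of Dgat1, an enzyme of triglyceride synthesis (-0.52 ± 0.10, limma adjusted p = 0.0645), which was called without WT ZT20 mouse 4. EpiRE minus WT gave 208 genes (1.81%), 16 with a positive (0.139%) and 192 with a negative difference (1.67%), and 34 positive and 69 negative after rescaling. Its count lay between 40 and 415 in the fits that left out a library, at 40 without EpiRE ZT20 mouse 3, 41 without EpiRE ZT8 mouse 3, 59 without WT ZT8 mouse 3, 61 without EpiRE ZT20 mouse 1, 72 without WT ZT20 mouse 2, 119 without WT ZT20 mouse 1, 361 without EpiRE ZT20 mouse 4 and 415 without WT ZT20 mouse 4. BRE minus WT gave 405 genes (3.52%), 116 positive (1.01%) and 289 negative (2.51%), and 159 and 215 after rescaling, with 226 without BRE ZT20 mouse 1 and 239 without WT ZT20 mouse 1.

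Clock genes were among those called in the tests of EpiRE and BRE against WT. In EpiRE minus WT, Aaas (limma, adjusted p = 0.000898) and Anxa7 (adjusted p = 0.00128) came before all clock genes but Nr1d1. Against WT, EpiRE had a smaller contrast for Nr1d1 (2.83 ± 0.37, limma adjusted p = 2.76e-05), Cry1 (-1.56 ± 0.28, adjusted p = 0.00483), Nr1d2 (1.48 ± 0.29, adjusted p = 0.0069), Arntl (-1.02 ± 0.22, adjusted p = 0.0129), Ciart (1.89 ± 0.44, adjusted p = 0.0195) and Clock (-0.38 ± 0.10, adjusted p = 0.0396). The call of Clock was lost after rescaling (adjusted p = 0.184). For Dbp, Per3, Tef and Npas2 the EpiRE and WT contrasts were not called as different, which does not show them to be alike. EpiRE and WT had -2.21 and -4.38 for Dbp, -1.51 and -2.06 for Per3 and 1.36 and 2.15 for Npas2. BRE differed from WT in 12 of the 17 clock genes, with 4.51 ± 0.35 for Dbp and 4.22 ± 0.18 for Nr1d1.

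Among the reconstituted genotypes, RERE minus EpiRE gave 3 genes (0.0261%), 2 positive (0.0174%) and 1 negative (0.00868%). These were Cry1 (1.90 ± 0.27, limma adjusted p = 0.000208), Nr1d1 (-2.70 ± 0.40, adjusted p = 0.000227) and Hspa13, an HSP70-type chaperone (0.63 ± 0.12, adjusted p = 0.0293). Cry1 and Nr1d1 were called in all 16 fits that left out a library and Hspa13 in 6, and the count was 5 without RERE ZT20 mouse 1, without RERE ZT20 mouse 3 or without EpiRE ZT20 mouse 4. RERE minus BRE gave 95 genes (0.825%), 40 positive (0.347%) and 55 negative (0.478%), including 10 clock genes, with 47 without RERE ZT20 mouse 4, 50 without RERE ZT8 mouse 4, 48 without BRE ZT20 mouse 1 and 61 without BRE ZT8 mouse 2. EpiRE minus BRE gave 2 genes (0.0174%), Olig1 (-1.77 ± 0.34) and the glycolytic regulator Pfkfb2 (-0.56 ± 0.11), both with an adjusted p of 0.0444 (limma) that was lost after rescaling, and neither was called in every fit that left out a library.

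The 4 contrasts share no library, so their called genes could be counted against each other. Of the RERE calls 124 were also called in WT, which is 79.5% of the RERE and 6.77% of the WT calls, and all 124 had the same sign. EpiRE shared 27 with WT (32.5% of its calls and 1.47% of those of WT), again with the same sign, and BRE shared 28 (28.0% and 1.53%), of which 26 had the same sign. These shares of the RERE, EpiRE and BRE calls stand beside the 15.9% of all tested genes that were called in WT. RERE and EpiRE shared 8 genes (9.64% of the EpiRE calls), RERE and BRE 4 (4.0% of the BRE calls), and EpiRE and BRE 9 (9.0% of the BRE calls). Of all tested genes, 1.35% were called in RERE and 0.721% in EpiRE. Over the genes called in WT, the difference had the sign of WT for 89.2% in RERE, beside 68.8% of all tested genes, for 74.3% in EpiRE, beside 59.9%, and for 68.0% in BRE, beside 60.7%. The median size of these genes' difference was 0.41 in WT, and in the direction of WT it was 0.16 in RERE, 0.08 in EpiRE and 0.09 in BRE. Choosing genes by their call in WT favours large differences there, so the 0.41 does not stand on equal terms with the other values. Across the 11516 genes the contrasts had a Pearson r with that of WT of 0.55 in RERE, 0.28 in EpiRE and 0.23 in BRE, where genes are not independent replicates and no p is given.

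**Figure D3:**
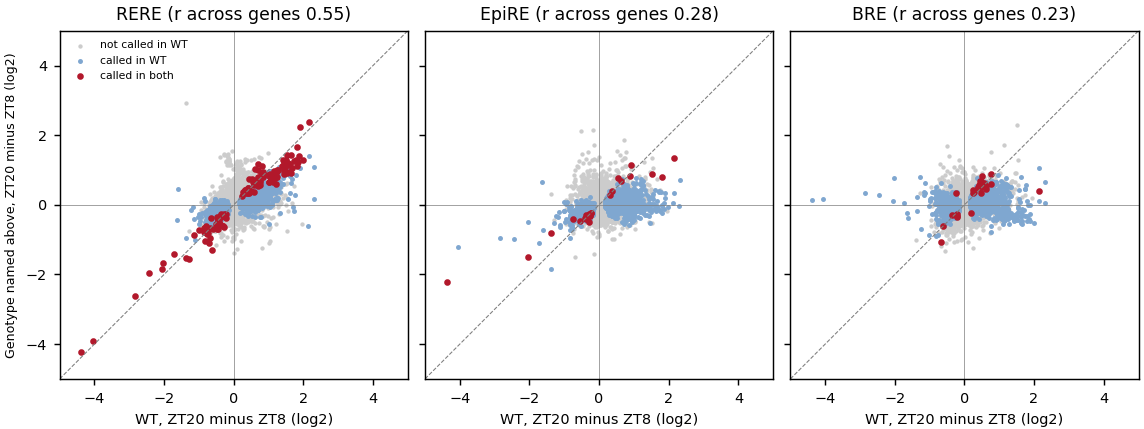
ZT20 minus ZT8 difference (log2) of the tested genes in RERE, EpiRE and BRE, each plotted against the difference in WT. Genes called in both follow the sign of WT in 124 of 124 cases in RERE, 27 of 27 in EpiRE and 26 of 28 in BRE.

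Of the 124 genes called in both RERE and WT, 50 had a contrast that differed from that of BRE in both genotypes, 26 of them higher and 24 lower at ZT20. Of all tested genes, RERE minus BRE called 0.825% and BRE minus WT 3.52%. The 124 were chosen by contrasts from the same RERE and WT libraries, so a larger share among them is no separate evidence. Clock genes made up 10 of the 50. Ttc9, a tetratricopeptide protein, was the clearest of the others, with 2.71, 2.58, 2.52 and 3.47 RPKM at ZT20 in RERE, against 1.22, 0.870, 1.13 and 0.939 at ZT8, and 2.56, 2.54, 2.50 and 2.70 RPKM at ZT20 in WT, against 0.750 to 1.27 at ZT8. In BRE it had 4.33 to 5.50 RPKM at ZT20 and 4.38 to 5.49 RPKM at ZT8, above every RERE and WT mouse. The differences were 1.44 ± 0.15 in RERE, 1.53 ± 0.15 in WT and -0.07 ± 0.11 in BRE, and RERE minus BRE was 1.51 ± 0.18 (limma, adjusted p = 4.42e-07). EpiRE had a smaller called rise (0.87 ± 0.18, adjusted p = 0.0283) that was called in 1 of the 8 fits that left out a library.

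Slc6a6, the taurine transporter, had a contrast of opposite sign in BRE. WT mice had 71.3, 46.6, 63.8 and 79.0 RPKM at ZT20, against 170, 138, 126 and 131 at ZT8 (-1.13 ± 0.15, limma adjusted p = 4.34e-05). RERE mice had 75.8, 85.4, 131 and 76.3 RPKM at ZT20, against 129, 194, 136 and 207 at ZT8, with 1 ZT20 mouse above the lowest ZT8 mouse (-0.86 ± 0.22, adjusted p = 0.0495). BRE mice had 60.8, 55.5, 62.4 and 60.2 RPKM at ZT20 and 33.8, 34.3, 45.3 and 42.3 at ZT8, which did not overlap and missed the threshold (0.63 ± 0.17, adjusted p = 0.0678). The contrast of BRE differed from that of WT by 1.76 ± 0.24 (limma, adjusted p = 4.41e-06) and RERE minus BRE was -1.49 ± 0.29 (adjusted p = 0.00278). Tns4, a focal adhesion protein, gave the same order, with 124, 115, 119 and 143 RPKM at ZT20 in WT, against 231, 207, 204 and 191 at ZT8, and 143, 154, 136 and 149 RPKM at ZT20 in BRE, against 99.2, 100, 126 and 117 at ZT8. The contrast of BRE differed from that of WT by 1.14 ± 0.13 for Tns4 (adjusted p = 6.09e-08), while the difference within BRE was not called (0.40 ± 0.10, adjusted p = 0.0512).

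Mitosis genes rose at night in WT and RERE. Of 32 tested genes of G2 and mitosis, WT had 29 higher at ZT20 and 0 lower, where 12.5% of all tested genes were higher, and RERE had 11 higher and 0 lower, where 0.842% of all were. EpiRE and BRE had 0 calls in the list, with 0 and 2 members at an unadjusted p under 0.05, beside 1526 and 2297 of all 11516 tested genes. The median difference of the list was 0.73 in RERE, -0.03 in EpiRE, -0.29 in BRE and 1.07 in WT, beside all-gene medians of 0.03, 0, 0.02 and 0.08. All 29 WT genes were called in every fit that left out a library, and 6 of the 11 RERE genes were, namely Aurkb, Bub1, Kif11, Top2a, Nusap1 and Ncapg. Rescaling left 29 in WT and 10 in RERE.

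Top2a, the topoisomerase that untangles chromosomes (chromosome 11), had 16.8, 19.8, 13.8 and 20.5 RPKM at ZT20 in RERE, against 9.24, 6.75, 9.41 and 8.55 at ZT8 (1.06 ± 0.20, limma adjusted p = 0.00769). In WT it had 27.2, 31.1, 23.1 and 26.4 RPKM at ZT20, against 7.46, 8.11, 8.12 and 10.3 at ZT8 (1.67 ± 0.18, adjusted p = 4.9e-06). The times overlapped in EpiRE, with 12.7, 17.5, 15.5 and 33.6 RPKM at ZT20 and 17.7, 18.9, 24.2 and 18.8 at ZT8, and in BRE, with 11.3, 15.7, 11.4 and 18.2 RPKM at ZT20 and 14.9, 17.2, 23.9 and 13.8 at ZT8. The mitotic kinases Aurkb and Bub1 rose by 1.27 ± 0.25 and 1.4 ± 0.27 in RERE and by 1.81 ± 0.21 and 1.87 ± 0.23 in WT. Cdca3, a trigger of mitotic entry outside the list, rose in RERE (1.00 ± 0.23, adjusted p = 0.0276, called in 3 of the 8 fits that left out a library) and in WT (1.26 ± 0.18, adjusted p = 6.54e-05).

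The tests between genotypes separated BRE and EpiRE from WT in this list. BRE minus WT was called as negative for 28 of the 32 genes, where 2.51% of all tested genes were, and EpiRE minus WT for 14, where 1.67% were. After rescaling the counts were 28 and 9. All 16 fits that left out a library called 20 of the 28 genes in BRE minus WT and 3 of the 14 in EpiRE minus WT. For Top2a these differences were -1.96 ± 0.33 (limma, adjusted p = 0.000235) and -1.77 ± 0.37 (adjusted p = 0.0127). RERE minus BRE was called as positive for 6 of the 32 (0.347% of all genes), 2 of them, Bub1 and Nusap1, in all 16 fits that left out a library. RERE minus WT and RERE minus EpiRE had 0 calls in the list, with 5 and 13 members at an unadjusted p under 0.05 and list medians of -0.40 and 0.71. Such a p was reached by 1056 and 779 of all 11516 tested genes in these 2 tests. The T cell marker sums given above were higher at ZT20 in WT and RERE, as mitosis genes were. They were also higher at ZT20 in BRE (70.4 to 94.6 RPKM, against 47.9 to 70.3 RPKM at ZT8). In BRE the mitosis list had a median of -0.29 and 0 calls. The part of the T cell markers in the mitosis result was not tested.

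The promoter of Top2a (chr11:99024140-99024439, minus strand, GRCm38.p6) is printed because it carries the CHR element of cell cycle genes, in capitals.
Top2a: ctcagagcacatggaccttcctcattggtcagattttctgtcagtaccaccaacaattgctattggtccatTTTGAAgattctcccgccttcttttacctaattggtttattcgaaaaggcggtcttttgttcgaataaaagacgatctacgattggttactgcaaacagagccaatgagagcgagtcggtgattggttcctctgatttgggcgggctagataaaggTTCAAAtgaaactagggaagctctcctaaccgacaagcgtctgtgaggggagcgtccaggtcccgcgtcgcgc
One copy lay 179 bases before the start, and a copy on the other strand, read here as TTCAAA, lay 23 bases before it. Of the 27 listed mitosis genes with a promoter in the table, 19 (70.4%) held a CHR element, beside 14.4% of tested genes and 17.9% of all promoters. A CCAAT box was found in 22 of the 27 (81.5%), beside 42.8% of tested genes, and an E-box in 1 (3.70%), beside 12.2%.

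Genes of DNA replication and S phase (34 tested) did not follow the mitosis list. RERE had 3 lower at ZT20 and 0 higher, the replicative helicase genes Mcm2 (-0.96 ± 0.24) and Mcm3 (-0.98 ± 0.22) and their partner Gins2 (-1.05 ± 0.21), and of these only Gins2 was called in every fit that left out a library, where 0.512% of all tested genes were lower. WT had 4 higher and 0 lower of the 34, a share near the 12.5% of all tested genes that were higher. They were the ribonucleotide reductase genes Rrm1 (0.34 ± 0.10) and Rrm2 (1.2 ± 0.22), the polymerase gene Pola1 (0.52 ± 0.10) and the thymidine kinase gene Tk1 (0.61 ± 0.09), and 3 higher and 1 lower after rescaling. EpiRE and BRE had 0 calls, with 12 and 8 members at an unadjusted p under 0.05. Such a p was reached by 1526 of all 11516 tested genes in EpiRE and 2297 in BRE. The medians were -0.24 in RERE, -0.25 in EpiRE, 0.26 in BRE and 0.16 in WT. RERE minus BRE was called for the same Mcm2, Mcm3 and Gins2 (-1.59 ± 0.38, -1.55 ± 0.38 and -1.52 ± 0.33), and RERE minus WT for none, although 18 of the 34 had an unadjusted p under 0.05 and the median was -0.46. In RERE minus WT such a p was reached by 1056 of all 11516 tested genes. EpiRE minus WT was called as negative for 4 of the 34 (Pola1, Rrm2, Tk1 and the S phase cyclin Ccne2), 2 after rescaling, where 1.67% of all tested genes were. BRE minus WT was called as negative for Rrm2 (-1.25 ± 0.28) and Tk1 (-0.80 ± 0.19), both in all 16 fits that left out a library.

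**Figure D4:**
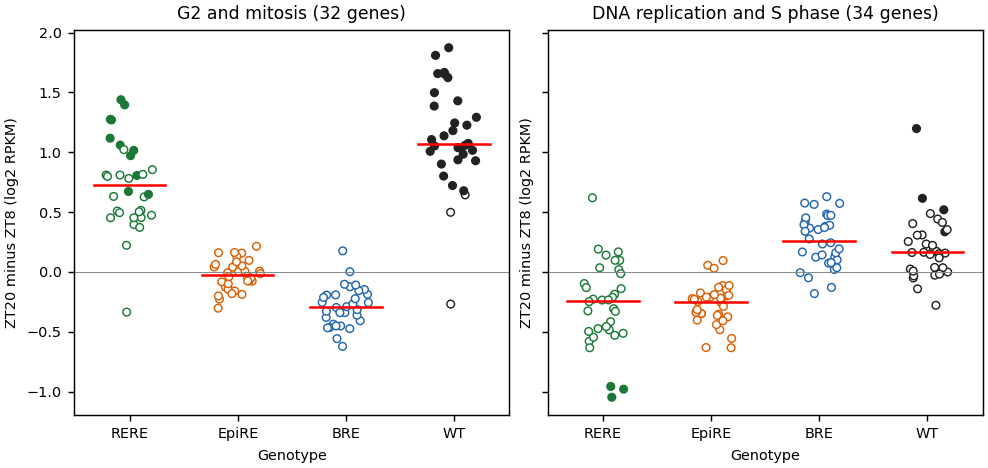
ZT20 minus ZT8 difference (log2) of each tested gene of the G2 and mitosis list (32 genes) and of the S phase list (34 genes) in RERE, EpiRE, BRE and WT, with called genes filled and a red line at the median. The mitosis medians are 0.73, -0.03, -0.29 and 1.07, and the S phase medians -0.24, -0.25, 0.26 and 0.16.

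The D cyclin genes Ccnd1 and Ccnd2, whose products carry growth signals into G1, fell at ZT20 in RERE and WT, and Ccnd2 fell in EpiRE. Of the 9 tested genes of the list of D cyclins, their kinases, CDK inhibitors and Rb1, these were the only calls in RERE (2 lower) and EpiRE (1 lower), and BRE had 0 calls with 2 members at an unadjusted p under 0.05. The shares of all tested genes called lower were 0.512% in RERE, 0.443% in EpiRE and 0.46% in BRE. In BRE 2297 of all 11516 had an unadjusted p under 0.05. WT had 3 lower, with the inhibitor Cdkn1b (-0.33 ± 0.10), where 3.42% of all tested genes were lower, and 2 higher (Cdk6 and Cdkn2c) that were not called after rescaling. The list medians were -0.03 in RERE, -0.02 in EpiRE, 0.06 in BRE and 0.13 in WT. Ccnd2 (chromosome 6, 127125162 to 127152193, minus strand) had 53.1, 56.6, 45.3 and 42.7 RPKM at ZT20 in RERE, against 144, 127, 149 and 143 at ZT8 (-1.52 ± 0.13, limma adjusted p = 1.87e-07). WT had 59.0, 67.3, 53.0 and 52.9 RPKM at ZT20, against 198, 138, 127 and 144 at ZT8 (-1.37 ± 0.18, adjusted p = 2.6e-05). EpiRE had 71.9, 59.7, 82.3 and 69.1 RPKM at ZT20, against 117, 115, 106 and 161 at ZT8, without overlap (-0.81 ± 0.18, adjusted p = 0.0442, called in 1 of the 8 fits that left out a library). BRE had 71.8, 57.1, 61.0 and 53.4 RPKM at ZT20 and 50.6, 49.0, 60.8 and 45.8 at ZT8, which overlapped (0.24 ± 0.11, adjusted p = 0.252). RERE minus BRE was -1.75 ± 0.18 (adjusted p = 9.06e-09) and BRE minus WT 1.61 ± 0.22 (adjusted p = 4.41e-06). Ccnd1 fell in RERE (-0.69 ± 0.15, adjusted p = 0.0257, called in 3 of the 8 fits that left out a library) and in WT (-0.60 ± 0.13, adjusted p = 0.00337), and both contrasts differed from that of BRE.

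Counts in the lists outside the clock and the cell cycle stand beside the shares of all tested genes called higher at ZT20, which were 0.842% in RERE, 0.278% in EpiRE, 0.408% in BRE and 12.5% in WT. Of 17 chaperones and folding enzymes of the endoplasmic reticulum, WT had 11 higher and 1 lower at ZT20 (Herpud1), with a median of 0.54, where RERE had 0 calls (median 0.22), EpiRE 2 higher (0.30) and BRE 0 (0.09). Members with a positive difference numbered 14 in RERE, 15 in EpiRE, 11 in BRE and 15 in WT. An unadjusted p under 0.05 was reached by 5, 13, 3 and 14 members, beside 1502, 1526, 2297 and 3515 of all 11516 tested genes. Sdf2l1 rose most in WT (1.04 ± 0.23, limma adjusted p = 0.00436), followed by calreticulin, Calr (0.77 ± 0.15, adjusted p = 0.00152). Hspa5 (BiP), the main chaperone of the compartment, had 154, 155, 145 and 170 RPKM at ZT20 in EpiRE, against 117, 83.5, 86.0 and 84.5 at ZT8, without overlap (0.76 ± 0.17, adjusted p = 0.0385, called in 2 of the 8 fits that left out a library). In WT the ZT20 values of 117, 191, 141 and 147 RPKM overlapped with 91.9, 81.2, 112 and 124 at ZT8 (0.54 ± 0.17, adjusted p = 0.0354, and 0.0941 after rescaling). No member was called in the difference of RERE or EpiRE from WT. BRE minus WT was called as negative for Dnajb11, Manf and Xbp1, where 2.51% of all tested genes were. Of these 3 calls, 0 were made in all 16 fits that left out a library.

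The heat shock list (18 tested) had 7 genes higher at ZT20 in WT, with a median of 0.25, among them Hsph1 (0.76 ± 0.22), the co-chaperones Fkbp4 (0.53 ± 0.11) and Stip1 (0.52 ± 0.12) and the mitochondrial Hspe1 (0.47 ± 0.10), and 0 calls in RERE, EpiRE and BRE, where 4, 8 and 0 members had an unadjusted p under 0.05. Such a p was reached by 1502, 1526 and 2297 of all 11516 tested genes in RERE, EpiRE and BRE. With the shares of all genes called given above, 0 calls of 18 in those genotypes does not set the list apart by its calls. BRE minus WT was called as negative for Hspe1, Cacybp and Fkbp4, where 2.51% of all tested genes were, and no member in RERE or EpiRE minus WT. Of these 3 calls, 0 were made in all 16 fits that left out a library. The cold-inducible RNA-binding protein Rbm3, which is made at lower body temperature, fell in BRE, where 48.6, 47.6, 48.3 and 52.5 RPKM at ZT20 compared with 82.4, 72.0, 73.4 and 71.9 at ZT8 (-0.60 ± 0.07, limma adjusted p = 8.82e-05). It fell in WT too, with 72.7, 34.9, 46.0 and 64.3 RPKM at ZT20, against 91.5, 78.5, 80.0 and 74.0 at ZT8 (-0.63 ± 0.16, adjusted p = 0.0104). RERE and EpiRE groups did not overlap either, with 47.7 to 58.4 RPKM at ZT20 and 62.1 to 91.1 RPKM at ZT8 in RERE (-0.42 ± 0.13, adjusted p = 0.119) and 41.6 to 60.2 RPKM at ZT20 and 62.4 to 86.0 RPKM at ZT8 in EpiRE (-0.43 ± 0.11, adjusted p = 0.0626). No pair of genotypes differed by a called amount for Rbm3.

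The lists of oxidative phosphorylation, glycolysis, NRF2 targets and fatty acid oxidation had medians of 0.03 to 0.24 in WT, beside 0.08 for all tested genes, where 12.5% of all were higher and 3.42% lower. Nuclear-encoded oxidative phosphorylation genes (30 tested) had 9 higher at ZT20 in WT with a median of 0.16, and 4 after rescaling. BRE minus WT was called as negative for 4 of them (Ndufv1, Ndufa4, Sdhc and Atp5o), and for 4 after rescaling, where 2.51% of all tested genes were. It was also called as negative for the glycolytic genes Pgk1, Eno1 and Ldha, in 11, 6 and 4 of the 16 fits that left out a library. After rescaling it was called for 0 glycolytic genes. Glycolysis (17 tested) had 5 higher (Hk2, Pfkp, Pgk1, Pkm and Ldha) and 1 lower (Pfkfb3) in WT, and 1 and 1 after rescaling, while RERE had Pfkp higher (0.34 ± 0.07, limma adjusted p = 0.0125, and 0.0548 after rescaling) and Pfkfb3 lower (-0.85 ± 0.17, adjusted p = 0.011). Antioxidant targets of NRF2 (19 tested) had 6 higher and 1 lower in WT, and 2 and 1 after rescaling. Among genes of fasting and fatty acid oxidation (20 tested), the carnitine shuttle gene Cpt1a and the mitochondrial carrier Ucp2 fell in RERE (-0.62 ± 0.08 and -0.65 ± 0.07) and in WT (-0.31 ± 0.09 and -0.28 ± 0.09), with neither called in RERE minus WT, and Acadl, Acadvl and Hadha were higher in WT, but not after rescaling. Cholesterol and fatty acid synthesis had 1 call, Acaca in WT (0.48 ± 0.10). The 30 cytosolic ribosomal protein genes had 0 calls in every genotype, with 2 in BRE at an unadjusted p under 0.05 and 0 in the others. Such a p was reached by 2297 of all 11516 tested genes in BRE.

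Hadha, the trifunctional enzyme of mitochondrial beta oxidation, was called with opposite signs. BRE had 46.0, 46.5, 46.0 and 47.7 RPKM at ZT20, against 52.5, 53.8, 58.0 and 54.2 at ZT8 (-0.23 ± 0.06, limma adjusted p = 0.0468), and WT 48.6, 48, 44.7 and 43.1 RPKM at ZT20, against 37.4, 41.5, 40.6 and 41.9 at ZT8 (0.19 ± 0.06, adjusted p = 0.0446). The calls within BRE and within WT were made in 1 and 2 of the 8 fits that left out a library, whereas the difference of BRE from WT, -0.42 ± 0.08 (adjusted p = 0.00125), was called in all 16. Its partner gene Hadhb fell in BRE (-0.31 ± 0.07). The transcription factor Foxk1 was called with opposite signs as well, higher in BRE (0.34 ± 0.07) and lower in WT (-0.23 ± 0.06).

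**Figure D5:**
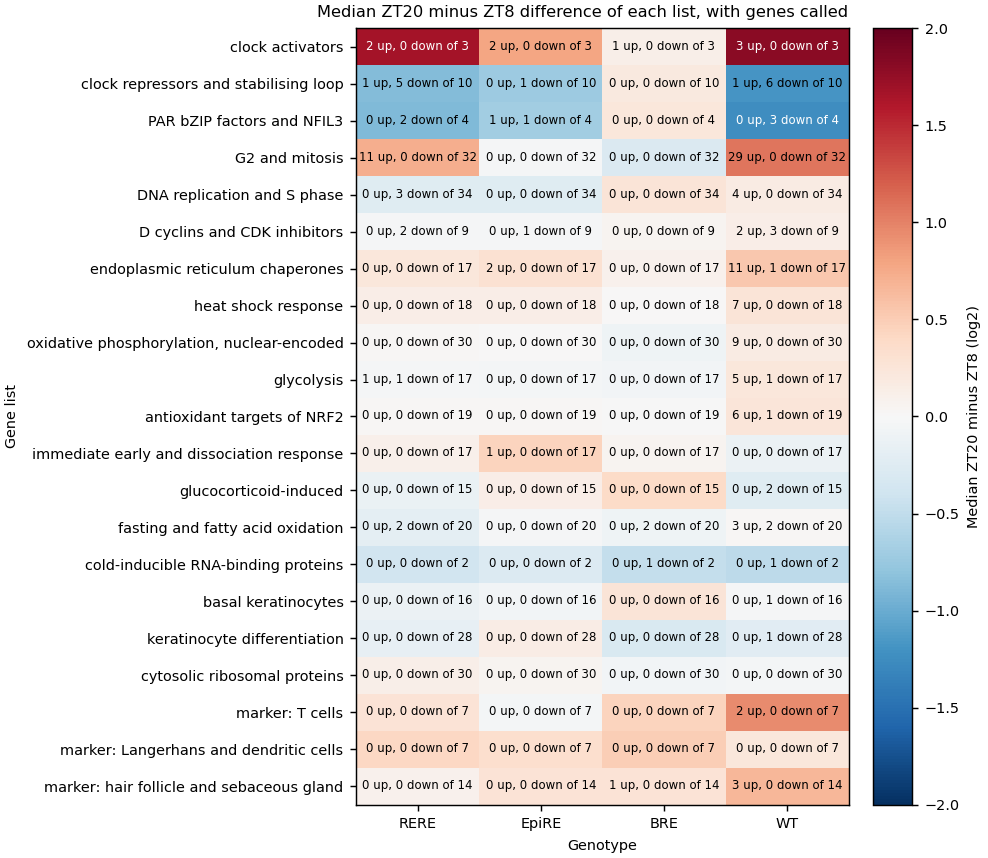
Median ZT20 minus ZT8 difference (log2) of the gene lists in RERE, EpiRE, BRE and WT, with the number of called genes written in each cell. The G2 and mitosis row has medians of 0.73, -0.03, -0.29 and 1.07, and the chaperones of the endoplasmic reticulum 0.22, 0.30, 0.09 and 0.54.

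Npas2 was the single clock gene among the 100 genes called in BRE. Rbm3, Col23a1, Ecm1 and Sptssa were among the 5 BRE genes called in every fit that left out a library. The collagen gene Col23a1 rose by 0.95 ± 0.11 (limma, adjusted p = 8.82e-05) and differed from the contrast in RERE (RERE minus BRE -1.36 ± 0.20, adjusted p = 2.17e-05) and in WT (BRE minus WT 1.00 ± 0.23, adjusted p = 0.00592). Lgr6, a receptor of follicle and epidermal stem cells, had 32.7, 24.8, 24.5 and 30.1 RPKM at ZT20 in BRE, against 11.6, 11.5, 14.7 and 15.7 at ZT8 (1.07 ± 0.21, adjusted p = 0.0225, called in 5 of the 8 fits that left out a library). RERE minus BRE was -1.45 ± 0.29 for Lgr6 (adjusted p = 0.0037). Akr1c18, a progesterone-metabolizing enzyme, had the largest fold among BRE calls, but a ZT8 mouse at 1.05 RPKM stood within the ZT20 range of 1.02 to 1.84 RPKM, and the call was made in 3 of the 8 fits that left out a library. The hair follicle and sebaceous markers (14 tested) had Lgr6 as their single BRE call, and in WT Krt17, Lgr5 and Sox9, none of which was called after rescaling. All 14 had a positive difference in WT, with a median of 0.67 (0.59 after rescaling), beside 0.08 for all tested genes. The medians were 0.09 in RERE, 0.27 in EpiRE and 0.27 in BRE. Their sums overlapped between the times except in EpiRE (777 to 1200 RPKM at ZT20, against 620 to 776 RPKM at ZT8). Their part in the other results was not tested.

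In EpiRE the genes called in every fit that left out a library included Nfil3, Tsku, Atxn3, Cav2 and Olig1. Tsku, a secreted regulator of Wnt signalling, rose by 1.34 ± 0.18 (limma, adjusted p = 0.00176), with geometric means of 35.7 RPKM at ZT20 and 14.1 RPKM at ZT8. After Tsku, the largest called rises in EpiRE outside the clock lists, among genes at 10 RPKM or more, were those of Ier3 (1.29 ± 0.23, adjusted p = 0.0113, called in 6 of the 8 fits that left out a library), Irf1 (1.28 ± 0.29, called in 2), Ier5 (0.92 ± 0.19, called in 4) and Ppp1r15a (0.90 ± 0.19, called in 4). Of 17 immediate early and dissociation response genes, which are also induced when tissue is taken apart, EpiRE had 1 called higher (Ier3), all 17 with a positive difference and a median of 0.45, beside a median of 0.10 in RERE, 0.06 in BRE and -0.12 in WT. Their part in the EpiRE result was not tested.

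Anxa7, an annexin, fell in RERE and WT and had one of the smallest adjusted p values in EpiRE minus WT. WT had 43.8, 41.0, 43.3 and 47.1 RPKM at ZT20, against 70.6, 70.7, 70.2 and 62.5 at ZT8 (-0.65 ± 0.06, limma adjusted p = 1.83e-07), and RERE 48.8, 48.8, 52.9 and 52.0 RPKM at ZT20, against 60.7, 71.4, 67.4 and 64.5 at ZT8 (-0.38 ± 0.06, adjusted p = 0.00184). EpiRE mice were at 46.0 to 54.7 RPKM at ZT20 and 57.6 to 59.7 RPKM at ZT8, which did not overlap but was not called (-0.18 ± 0.05, adjusted p = 0.127). EpiRE minus WT was 0.47 ± 0.08 (adjusted p = 0.00128). Cxcl14, a chemokine of skin, rose in RERE (1.04 ± 0.18), EpiRE (0.68 ± 0.15) and WT (0.62 ± 0.18), and RERE minus BRE was 0.87 ± 0.21 (adjusted p = 0.0314).

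Lists of keratinocyte state had few calls. Of all tested genes, 12.5% were called higher and 3.42% lower at ZT20 in WT. The share called lower was 0.512% in RERE, 0.443% in EpiRE and 0.46% in BRE. Of 16 basal keratinocyte genes, Dst, a plakin of hemidesmosomes, fell in WT (-0.79 ± 0.10, limma adjusted p = 2e-05), and its contrast in BRE differed from that of WT by 1.06 ± 0.17. Of 28 differentiation genes, the lipoxygenase gene Aloxe3 fell in WT (-0.66 ± 0.17, adjusted p = 0.0129), with medians of -0.17 in RERE, 0.15 in EpiRE, -0.31 in BRE and -0.23 in WT. Glucocorticoid-induced genes (15 tested), a readout of adrenal hormone, had Zbtb16 and Glul lower in WT (-0.83 ± 0.23 and -0.83 ± 0.18) and 0 calls in the other genotypes, with 1, 4 and 3 members at an unadjusted p under 0.05 in RERE, EpiRE and BRE. Such a p was reached by 1502, 1526 and 2297 of all 11516 tested genes there. T cell markers had Thy1 and Cd3e higher in WT (0.94 ± 0.17 and 1.56 ± 0.49), and markers of Langerhans cells, melanocytes, fibroblasts, muscle and red blood cells had no call at an adjusted p under 0.05 in any genotype.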

How the data were processed

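Epidermis was separated from back skin with dispase, filtered to a cell suspension and lysed, and stranded poly(A) libraries were sequenced from 4 mice per genotype and time, per the labels' protocols. Reads were processed with Trimmomatic 0.36, HISAT2 2.2.1, SAMtools 1.3.1, featureCounts 1.6.0 and edgeR on mm10, per the submitters' processing notes. The authors deposited 1 table of log2 values per genotype, each normalized on its own. No label names their unit, and they behave as log2 RPKM with a prior count of 2 reads. Tables differ by a constant of up to 0.132 on the log2 scale, which drops out of differences within a table, and levels were not tested across genotypes. The prior count understates the change of weak genes. The 96 sample columns of the rhythm tables repeat these values and were not used. Whole reads (within 0.05) could be recovered for 8000 weak genes, and depth was estimated from them.

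The 22384 genes common to the tables were filtered to a mean of at least 1 RPKM (12144), and 623 small RNA genes and 5 genes under 10 recovered reads were then left out, a step chosen after seeing the data, since 524 genes past the RPKM filter had under 10 reads. Limma 3.58.1 (R 4.3.3, mean-variance trend, 6 time means, 24 libraries of a genotype, or 48 for a pair) tested 11516 genes, two-sided, and the tests were checked on simulated data. Replicates are separate mice. Their numbers did not pair the samples: deviations of same-numbered libraries at the 2 times correlated at -0.40 to 0.42 over 16 pairs, 3 of them over 0.1. No 2 libraries held identical values. Positions are from GENCODE M21 by symbol (11330 tested genes matched), promoters from RefSeq.

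The comparison, the 31 gene lists and the rules were chosen with earlier results of these data known. A gene that the rules would name is not reported here and was left out of the lists. Named genes are those of the clock lists, the 5 largest rises and falls per genotype at 10 RPKM or more, the 6 smallest adjusted p values per pair of genotypes, up to 4 called members per list, and genes called in all 4 genotypes or with opposite signs. Alternatives were no filter, median-of-ratios rescaling, the ZT8 and ZT20 libraries alone, all 96 libraries in 1 fit, no trend, log2(RPKM + 1), a replicate block, each library left out and, added later, the RPKM filter alone.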

Additional observations from a re-analysis of the deposited data

Results flagged for a closer look

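Within groups of 4 mice, 6 values lay far from the other 3 among 160 groups examined (20 displayed genes), where chance flags about 1 in 20 groups. In EpiRE these were Dbp in ZT8 mouse 4 at 65.4 RPKM, Per3 in ZT20 mouse 4 at 4.60 RPKM and Hspa5 in ZT8 mouse 1 at 117 RPKM. In BRE they were Anxa7 in ZT8 mouse 4 at 53.6 RPKM and Rbm3 in ZT8 mouse 1 at 82.4 RPKM, and in WT it was Anxa7 in ZT8 mouse 4 at 62.5 RPKM. The fall of Rbm3 in BRE was called without that mouse too, with an adjusted p of at most 0.000971 (limma) in the fits that left out a library.

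The remaining 51 values are differences of the ZT20 minus ZT8 contrast between genotypes that passed the threshold in limma (adjusted p under 0.05), given on the log2 scale. EpiRE minus WT gave Aaas (-0.74), Ahcy (-0.75), Anxa7 (0.47), Arntl (-1.02), Ciart (1.89), Clock (-0.38), Cry1 (-1.56), Dpy19l1 (-0.90), Neil3 (-1.98), Nr1d1 (2.83), Nr1d2 (1.48) and Tbl3 (-0.61). Tbl3, Aaas, Ahcy, Dpy19l1 and Neil3 were all called higher at ZT20 in WT.

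BRE minus WT gave Arntl (-1.69), Ccnd2 (1.61), Ciart (3.19), Clock (-0.37), Cry1 (-1.90), Cry2 (1.11), Dbp (4.51), Hlf (1.08), Leo1 (-0.92), Npas2 (-1.76), Nr1d1 (4.22), Nr1d2 (2.73), Per3 (2.18), Rsad1 (1.12), Slc6a6 (1.76), Tef (1.79), Tns4 (1.14) and Ttc9 (-1.60). The signs of the clock genes in BRE minus WT are opposite to those of their WT contrasts, and their contrasts within BRE lay between -0.01 (Cry1) and 0.39 (Npas2).

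RERE minus EpiRE gave Cry1 (1.90), Hspa13 (0.63) and Nr1d1 (-2.70). RERE minus BRE gave Arntl (1.54), Arsi (-2.35), Ccnd2 (-1.75), Ciart (-2.96), Col23a1 (-1.36), Cry1 (2.24), Cry2 (-0.83), Dbp (-4.34), Fam234b (0.87), Npas2 (1.99), Nr1d1 (-4.09), Nr1d2 (-2.25), Per3 (-1.96), Rsad1 (-1.34), Tef (-1.47) and Ttc9 (1.51). EpiRE minus BRE gave Olig1 (-1.77) and Pfkfb2 (-0.56). Cry1 and Nr1d1 are the genes for which both RERE and WT differed from both EpiRE and BRE by a called amount.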

How the results depend on the processing

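No called value of a named gene changed sign, whereas values near 0 that were not called did, and calls higher at ZT20 outnumbered lower ones in WT under every alternative run. In the other genotypes that balance was not stable. RERE had 85 higher and 94 lower after rescaling, 58 and 62 without ZT20 mouse 1 and 37 and 44 without ZT20 mouse 2, EpiRE had 37 and 30 without ZT8 mouse 4, and BRE had 242 and 203 with all 96 libraries. Without the filter, 95 genes were called in RERE, 59 in BRE, 122 in EpiRE minus WT, 243 in BRE minus WT, 59 in RERE minus BRE and 0 in EpiRE minus BRE. With the ZT8 and ZT20 libraries alone, 52 were called in RERE, 8 in EpiRE, 62 in BRE, 877 in WT, 49 in EpiRE minus WT, 0 in RERE minus EpiRE and 10 in EpiRE minus BRE. With all 96 libraries in 1 fit, 445 were called in BRE, 9 in RERE minus EpiRE and 11 in EpiRE minus BRE. Rescaling gave 173 in BRE, 103 in EpiRE minus WT and 0 in EpiRE minus BRE, and log2(RPKM + 1) gave 0 in the last of these. The RPKM filter alone, chosen after seeing the data, gave 175 in BRE and 1 in RERE minus WT. The samples share a number but are not paired by it: with the replicate block 43 were called in EpiRE, 52 in BRE, 1 in RERE minus WT and 0 in EpiRE minus BRE, and 3 of the same-numbered libraries correlated best with their own number. Leaving out 1 library gave 81 to 158 in RERE, 14 to 92 in EpiRE, 6 to 255 in BRE, 1278 to 2110 in WT, 0 to 1 in RERE minus WT, 40 to 415 in EpiRE minus WT, 226 to 572 in BRE minus WT, 2 to 5 in RERE minus EpiRE, 47 to 114 in RERE minus BRE and 0 to 3 in EpiRE minus BRE. The cause of these shifts was not tested. Over 394 values of named genes, between 10 with log2(RPKM + 1) and 87 with the 2 times alone fell below the threshold. At 4 mice per time and 11.6 to 19.9 M reads, a gene not called, above all in EpiRE and BRE, is not shown to be unchanged.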
